A study of Mus musculus with 126 samples.

Results

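High-salt and low-salt food, each offered only at night, were compared in mouse colon with 36 of the 126 RNA-seq libraries of a study of dietary salt, meal time and the circadian clock. The 36 are all libraries of the night-fed groups, 18 from mice on the high-salt diet and 18 from mice on the low-salt diet. Each group holds 3 libraries per time of harvest at 6 times, counted as zeitgeber time (ZT) from lights on, ZT0, ZT4, ZT8, ZT12, ZT16 and ZT20. Both groups were male C57BL/6 mice, 8 weeks old, in 12 h of light and 12 h of darkness, with no engineered allele named, and only the salt content of the food separates them in the labels. The sources used here do not give salt contents, feeding hours, time on the diet or the segment of colon taken, or say whether each library is 1 animal, so p-values measure the spread between these samples. The remaining conditions are high and low salt fed by day, MR knock out and gut-specific Bmal1 knock out mice of 8 to 12 weeks, and wild type, the last 3 conditions with free access to normal chow.

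In the distal colon, sodium enters surface cells through the epithelial sodium channel ENaC and is pumped out across the basolateral membrane by the sodium-potassium ATPase. Aldosterone, released when sodium is scarce, acts through the mineralocorticoid receptor (MR) to raise the channel, its kinase SGK1 and regulators of the pump, and HSD11B2 keeps glucocorticoids off that receptor. Colon epithelium also carries a standing programme of interferon-induced antiviral genes and of antigen presentation, and lymphocytes that sit between its cells express cytotoxic genes.

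Epithelial markers were abundant, and those of muscle and nerve were low. Epcam, an adhesion protein of epithelial cells, lay at 383 to 559 (median 490.1) rescaled FPKM in high salt and 439.9 to 603 (median 519) in low salt, and Krt8, a keratin of simple epithelia, at 2294 to 3512 (median 2838) and 2471 to 3619 (median 2823). FPKM is the number of sequenced fragments relative to transcript length and to the library's total, and rescaled means divided by a scale factor per library. These values and, unless said otherwise, those that follow are from ZT0, ZT4, ZT16 and ZT20, with 12 libraries per group. Gene levels given in FPKM below are rescaled too, except where FPKM as deposited is named. Muc2, the goblet cell mucin, lay at 271 to 799 (median 537) in high salt and 305 to 683 (median 479.7) in low salt, and Epcam, Krt8 and Muc2 overlapped widely between the diets. The summed level of 10 smooth muscle genes was only 6.79 to 12.2 in high salt and 8.27 to 11.4 in low salt, and that of 12 genes of enteric neurons and glia stayed at 0.916 or below in both.

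Library yield, used here for the scale factor of the FPKM values and not for the number of reads, did not match at all times. The scale factor ran from 0.388 to 1.33 in high salt and from 0.781 to 1.41 in low salt, and it lay under 0.6 in 3 high salt libraries at ZT8 and in 2 at ZT12. At ZT0, ZT4, ZT16 and ZT20 it ran from 0.700 to 1.33 in high salt and from 0.781 to 1.41 in low salt. The match was loose at ZT16, with 0.974, 0.700 and 1.16 in high salt and 1.33, 1.28 and 1.02 in low salt. Relative numbers of mapped reads, estimated from the spacing of low FPKM values, where 1 read is 1 step, ran from 0.789 to 1.11 in high salt and from 0.829 to 1.10 in low salt over all 6 times. At ZT8 and ZT12 alone they ran from 0.789 to 1.11 in high salt and from 0.878 to 1.05 in low salt. Replicates differed by a median absolute log2 value of 0.119 to 0.429. The comparison averaged over the 4 times of closer yield is therefore given first, and the 6-time average beside it.

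More genes were lower than higher on high salt. Of 11380 tested rows, 272 were higher (2.39%) and 716 lower (6.29%) in high salt than in low salt over the 4 times (8.68% called, limma, Benjamini-Hochberg adjusted p under 0.05). Over all 6 times, 1752 were higher (15.4%) and 2227 lower (19.6%), which is 35% of rows. The higher calls made up 27.5% of calls at 4 times and 44.0% at 6 times. The 877 rows called in both had 1 sign in both, and they are 88.8% of the 4-time calls and 22.0% of the 6-time calls. The median absolute difference of all rows was 0.301 at ZT8 and 0.215 at ZT12, where yields differed most, against 0.133, 0.134, 0.224 and 0.108 at ZT0, ZT4, ZT16 and ZT20. The value at ZT16, where the match of yields was loose, was above that at ZT12.

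These counts depend on the scaling and on single libraries. The share of higher calls at 4 times was 2.34% with FPKM as deposited (26 higher and 1086 lower), where the median of all rows was -0.15, and 40.8% with quantile normalization. It was 38.9% with array weights and 44.8% with a length score as covariate. Over 6 times the length score made it 53.6%, with 2066 higher and 1789 lower, so that more rows were higher than lower. Without low salt ZT0 replicate 2 the 4-time counts were 516 higher and 1081 lower. The higher calls numbered 172 without low salt ZT0 replicate 3, 172 without high salt ZT0 replicate 2 and 154 without high salt ZT4 replicate 3. Groups that did not overlap at all over the 24 libraries were rare, with 24 rows lower (0.211%) and 1 row higher (0.00879%) in high salt.

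Genes of sodium channel activity and the aldosterone response were lower on high salt. Of 16 tested members of this list 9 fell and 0 rose by limma, 12 had an unadjusted p under 0.05, and all 16 had a negative difference, with a median of -0.42 on the log2 scale against -0.01 over all tested rows. Over 6 times 11 of 16 fell. The list was chosen with results of these data known, so its direction is not independent evidence. Zbtb16, the remaining member of 17, was too low to be tested.

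The gamma subunit of ENaC, Scnn1g (chromosome 7, 121734479 to 121768475, mm10), lay at 0, 0.0642 and 0.412 FPKM (lowest, median and highest library) in high salt, against 0.154, 0.410 and 5.09 FPKM in low salt, and 1 high salt library lists it at 0. In 11 of 12 high salt libraries it was below the lowest low salt library, and at this low level the 0.5 added before the log compresses the fold. Scnn1g fell by 1.14 ± 0.17 on the log2 scale (± SE, adjusted p = 1.62e-05), with 1 sign at all 6 times. The beta subunit Scnn1b (chromosome 7, 121865038 to 121918514) lay at 0.514, 1.04 and 2.30 FPKM in high salt, against 1.46, 2.37 and 7.34 FPKM in low salt, with 8 of 12 high salt libraries under the whole low salt group. Scnn1b fell by 0.88 ± 0.12 (adjusted p = 2.23e-06), but at ZT4 it averaged 2.02 ± 0.282 FPKM in high salt and 1.82 ± 0.333 in low salt (SD, n = 3). At ZT16 it averaged 1.35 ± 0.462 FPKM in high salt and 5.09 ± 2.30 in low salt. The alpha subunit Scnn1a (chromosome 6, 125320659 to 125344943) ranged over 13.2 to 23.4 (median 15.7) FPKM in high salt and 12.8 to 37.0 (median 21.9) in low salt. The high salt range lies inside the low salt range, and Scnn1a fell by 0.51 ± 0.10 (adjusted p = 0.000373), a call that ended without replicate number 3.

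Fxyd4, a regulator of the sodium pump induced by corticosteroids in the colon (chromosome 6, 117933559 to 117937692), had the largest fall among the sodium transport genes tested. It lay at 5.71, 18.9 and 73.8 FPKM in high salt, against 25.6, 114 and 282 FPKM in low salt, with 8 of 12 high salt libraries under every low salt library. Fxyd4 fell by 2.25 ± 0.27 (adjusted p = 2.31e-07). Hsd11b2, the enzyme that inactivates glucocorticoids beside MR (chromosome 8, 105518755 to 105523988), averaged 90.6 ± 26.7 FPKM in high salt and 161 ± 63.0 in low salt (SD, n = 12 each), and fell by 0.77 ± 0.07 (adjusted p = 1.01e-09). Its ranges overlapped across times but the high salt mean was below the low salt mean at all 6 times, 101 ± 23.8 against 215 ± 16.1 FPKM at ZT20 (SD, n = 3). The steroid receptor co-chaperone Fkbp5 (chromosome 17, 28399094 to 28517527), induced by corticosteroids, fell by 0.61 ± 0.10 (adjusted p = 6.91e-05), at 10.8 to 30.5 (median 20.4) FPKM in high salt and 17.3 to 44.3 (median 33.6) in low salt. Per1, a clock repressor that corticosteroids also induce (chromosome 11, 69095217 to 69109960), fell by 0.50 ± 0.10 (adjusted p = 0.000849), a call that ended without replicate number 1.

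**Figure D1:**
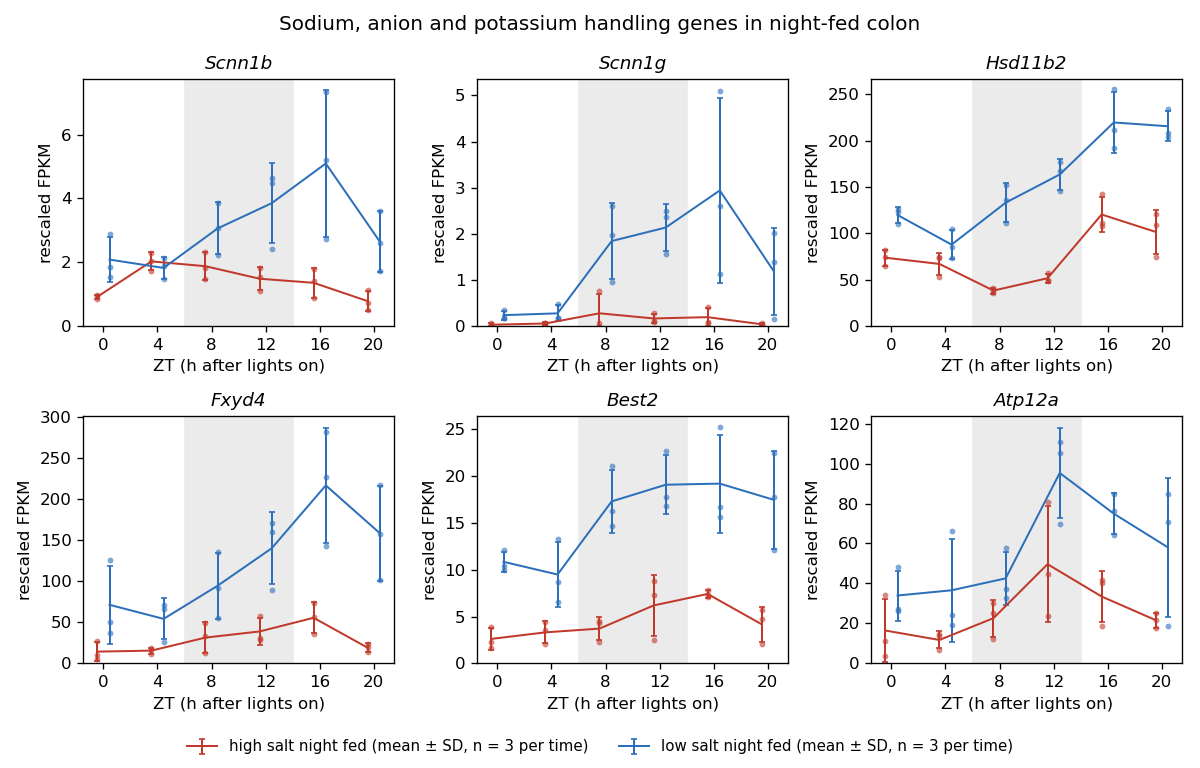
Rescaled FPKM of 6 genes against ZT in night-fed colon, high salt in red and low salt in blue, with points for libraries and lines and bars for the mean ± SD of 3 libraries per time. Grey bands mark ZT8 and ZT12, where high salt yields were low. Fxyd4, Hsd11b2 and Best2 lie lower in high salt at every time, and Scnn1b at ZT4 averages 2.02 ± 0.282 in high salt and 1.82 ± 0.333 in low salt.

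Other members of the aldosterone list gave less. Sgk1, the aldosterone-induced kinase (chromosome 10, 21882184 to 21999903), ranged over 6.46 to 46.6 (median 22.2) FPKM in high salt and 13.0 to 73.5 (median 34.3) in low salt and was called at -0.65 ± 0.21 (adjusted p = 0.0408). That call ended in 20 alternatives, with a replicate block, the length score, without any replicate number and without high salt ZT0 replicates 1 or 2, ZT4 replicate 3, ZT16 replicates 1, 2 or 3, ZT20 replicate 1, or low salt ZT0 replicates 1 or 3, ZT4 replicates 1 or 2, ZT16 replicate 1, ZT20 replicates 2 or 3. At ZT0 its difference was 0.47. Tmprss4, a surface protease of the ENaC-activating kind (chromosome 9, 45172726 to 45204092), fell by 0.19 ± 0.05 (adjusted p = 0.0169), a call that ended without replicate number 1 or 3 and with scale factors over the 36 night-fed libraries. Nr3c2, the gene of MR itself (chromosome 8, 76899442 to 77245012), was at 3.61 to 8.22 (median 6.53) FPKM in high salt and 2.63 to 12.2 (median 8.69) in low salt, with a difference of -0.34 ± 0.20 that did not pass (adjusted p = 0.288). The glucocorticoid-induced Tsc22d3 (-0.21 ± 0.09, adjusted p = 0.116) and the channel-activating protease Prss8 (-0.07 ± 0.06, adjusted p = 0.534) did not pass either, and the ubiquitin ligase of ENaC, Nedd4l, was at -0.02 ± 0.06 (adjusted p = 0.876).

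Among the pump and its FXYD regulators 4 of 6 tested members fell and 0 rose by limma (5 at unadjusted p under 0.05), with a median of -0.29. Fxyd5, a FXYD protein also known as dysadherin (chromosome 7, 31032722 to 31042481), lay at 0.512 to 2.45 (median 1.09) FPKM in high salt and 1.63 to 4.89 (median 2.98) in low salt, and fell by 0.96 ± 0.15 (adjusted p = 2.78e-05). The pump's beta subunit Atp1b1 (chromosome 1, 164437109 to 164458355) was called at -0.29 ± 0.09 (adjusted p = 0.0282). That call ended in 13 alternatives, among them quantile normalization, a fit of the night-fed groups alone, and leaving out high salt ZT0 replicate 3, ZT4 replicate 3, or low salt ZT0 replicates 1 or 3, ZT4 replicate 1, ZT16 replicate 1, ZT20 replicates 2 or 3. Over 6 times, with the low-yield libraries, its difference was -0.48 ± 0.07.

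Electroneutral absorption of sodium chloride, which couples sodium-hydrogen to chloride-bicarbonate exchange, gave calls at 4 times at a share near that of all tested rows (8.68%). Of 13 tested members 1 rose and 0 fell by limma at 4 times (6 at unadjusted p under 0.05), and 5 fell over 6 times. At 4 times 10 of the 13 had a negative difference and 3 a positive one, with a median of -0.16. The sodium-hydrogen exchanger Slc9a3 (chromosome 13, 74121457 to 74169442) averaged 5.32 ± 3.09 FPKM in high salt and 10.5 ± 5.68 in low salt (SD, n = 12 each), a difference of -0.92 ± 0.31 that missed the threshold (adjusted p = 0.0594). Slc26a3, the main chloride-bicarbonate exchanger of the colon, was at -0.22 ± 0.18 (adjusted p = 0.475). Car1, a carbonic anhydrase of surface colonocytes (chromosome 3, 14766216 to 14808368), rose by 0.69 ± 0.18 (adjusted p = 0.0116), at 1147 to 5117 (median 3219) FPKM in high salt and 1117 to 3954 (median 1769) in low salt. It was not called over 6 times (0.31 ± 0.15, adjusted p = 0.0991) or with quantile normalization, FPKM as deposited or replicate number 2 or 3 left out.

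Anion and potassium transport each held 1 large fall, where 8.68% of all tested rows were called at the 4 times. Best2, a bestrophin anion channel of colonic goblet cells (chromosome 8, 85007202 to 85014531), lay at 1.68, 4.13 and 7.86 FPKM in high salt, against 6.52, 12.7 and 25.2 FPKM in low salt. In 9 of 12 high salt libraries it was below every low salt library, and Best2 fell by 1.65 ± 0.15 (adjusted p = 3.84e-10). Of the 12 tested anion secretion genes 4 fell and 1 rose, with smaller falls of the chloride channel Clcn2 (-0.35 ± 0.07, adjusted p = 0.00144), the vasoactive intestinal peptide receptor Vipr1 (-0.31 ± 0.06, adjusted p = 0.000891) and the adenylyl cyclase Adcy6 (-0.22 ± 0.06, adjusted p = 0.0184). The call of Vipr1 ended without replicate number 1, that of Adcy6 without any of the 3 numbers and without low salt ZT20 replicate 3. The rise was of Kcne3, a potassium channel subunit (0.29 ± 0.08, adjusted p = 0.0184), and ended without any replicate number, without high salt ZT4 replicate 3 and with FPKM as deposited or quantile normalization. The chloride channel Cftr was at 0.03 ± 0.18 (adjusted p = 0.947).

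Atp12a, the catalytic subunit of the colonic proton-potassium pump (chromosome 14, 56365068 to 56388550), lay at 3.63, 18.3 and 41.5 FPKM in high salt, against 18.7, 56.2 and 84.7 FPKM in low salt. In total 6 of the 12 high salt libraries were below the low salt group, and Atp12a fell by 1.33 ± 0.30 (adjusted p = 0.00374), a call that ended without replicate number 3. Of 6 tested potassium genes 3 fell and 0 rose by limma (4 at unadjusted p under 0.05), the others being the potassium-chloride cotransporter Slc12a7 (-0.18 ± 0.04, adjusted p = 0.00767) and the potassium channel Kcnk5 (-0.34 ± 0.09, adjusted p = 0.017). The call of Slc12a7 ended without any of the 3 replicate numbers. That of Kcnk5 ended without number 1 or 3, with scale factors over the 36 night-fed libraries and in a fit of the night-fed groups alone. Of 7 aquaporin and guanylin genes 0 passed by limma in either direction, and 0 had an unadjusted p under 0.05. With 8.68% of all tested rows called, 0 calls in a list of this size does not set it apart from all rows. Over 6 times, where 35% of all rows were called, 2 of the 7 fell. The water channel Aqp8 stood at 85.8 to 221 (median 162) FPKM in high salt and 86.8 to 304 (median 142) in low salt, and the gut peptide guanylin, Guca2a, at 1240.0 to 3018 (median 2253) and 909.8 to 3332 (median 2064).

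Some markers of gut position differed between the diets, and others did not, where 8.68% of all tested rows were called at the 4 times. Hoxb13, a Hox gene of the distal colon (chromosome 11, 96194316 to 96197447), stood at 63.7 to 203 (median 94.6) FPKM in high salt and 104 to 226 (median 139) in low salt and fell by 0.43 ± 0.11 (adjusted p = 0.00757), and Hoxd13 fell by 0.53 ± 0.15 (adjusted p = 0.0198). Cdx2, a homeobox factor of intestinal identity, rose by 0.31 ± 0.08 (adjusted p = 0.0114), so that of 6 tested regional genes 2 fell and 1 rose. Each of these 3 calls ended without replicate number 2 and also without number 3, and that of Cdx2 without number 1 and with FPKM as deposited. The summed level of the 8 regional genes in the table was 354.1 to 548 (median 409) in high salt and 397 to 515 (median 451) in low salt. Of 8 tested small intestine genes 2 rose and 0 fell by limma (3 at unadjusted p under 0.05), the fatty acid binding protein Fabp2 and the phosphatase Alpi (0.56 ± 0.11, adjusted p = 0.000635). The call of Alpi ended with FPKM as deposited and without replicate number 3. The median difference of the 8 was -0.06, with 5 negative and 3 positive. The sum over the 11 genes of that list, Fabp2 included, was 349.6 to 693 (median 501) in high salt and 234 to 572 (median 367) in low salt. Whether the segment sampled has a part in the falls of sodium genes was not tested.

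Interferon-induced genes had the lowest median of all lists on high salt. This list and those of lymphocytes and MHC genes below were also chosen with results of these data known. Their direction and rank are therefore not independent evidence. Of 16 genes on the interferon list 15 fell and 0 rose by limma (16 at unadjusted p under 0.05), with a median difference of -1.63, and all 16 fell over 6 times. The exception at 4 times, Cxcl10, is a chemokine that attracts T cells. Cxcl10 was at -0.54 (adjusted p = 0.0761). Of the 10 largest falls among genes with 1 sign at all 6 times, 8 are genes known to be interferon-induced, 4 of them on the list, the others being Fxyd4 and the chemokine Ccl5.

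Isg15, a ubiquitin-like protein that is conjugated to others in the antiviral response (chromosome 4, 156199424 to 156200818), lay at 6.49, 10.9 and 31.0 FPKM in high salt, against 22.4, 55.9 and 186 FPKM in low salt. In 11 of 12 high salt libraries it was below every low salt library, and Isg15 fell by 2.33 ± 0.20 (adjusted p = 1.52e-10). Oas2, a sensor enzyme for double-stranded RNA (chromosome 5, 120730333 to 120749853), lay at 0.204, 0.362 and 0.770 FPKM in high salt, against 1.998, 5.31 and 13.2 FPKM in low salt. The diets did not overlap, and Oas2 fell by 2.62 ± 0.18 (adjusted p = 7.18e-13). Ifi27l2a, a small protein strongly induced by interferon (chromosome 12, 103442167 to 103443680), had the largest difference, at 0.488 to 2.45 (median 1.47) FPKM in high salt and 5.70 to 74.8 (median 17.7) in low salt, with no overlap. It fell by 3.14 ± 0.31 (adjusted p = 3.43e-09).

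Diets did not overlap either for Oasl2, a relative of the OAS enzymes, which fell by 2.43 ± 0.17, nor for Oas3, a further OAS enzyme, at 0.370 to 2.60 (median 0.746) FPKM in high salt and 3.20 to 10.8 (median 6.03) in low salt. They did not overlap for Ifi44 (down by 2.22), Usp18, the protease that removes ISG15 (down by 2.03), and the RNA-binding Ifit1 and Ifit2 (down by 1.89 and 1.81). The adjusted p of these 6 genes was at most 2.77e-08. The apolipoprotein L genes Apol9a and Apol9b, which are near-identical neighbours whose reads may be shared, fell by 2.32 and 2.43. At single times the differences of Isg15 were -1.67 at ZT0, -2.70 at ZT4, -2.89 at ZT16 and -2.06 at ZT20, and -3.64 and -3.64 at ZT8 and ZT12. None of the calls of Isg15, Oas2, Oas3, Oasl2, Ifi27l2a, Ifi44, Usp18, Ifit1 and Ifit2 ended under any alternative run.

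**Figure D2:**
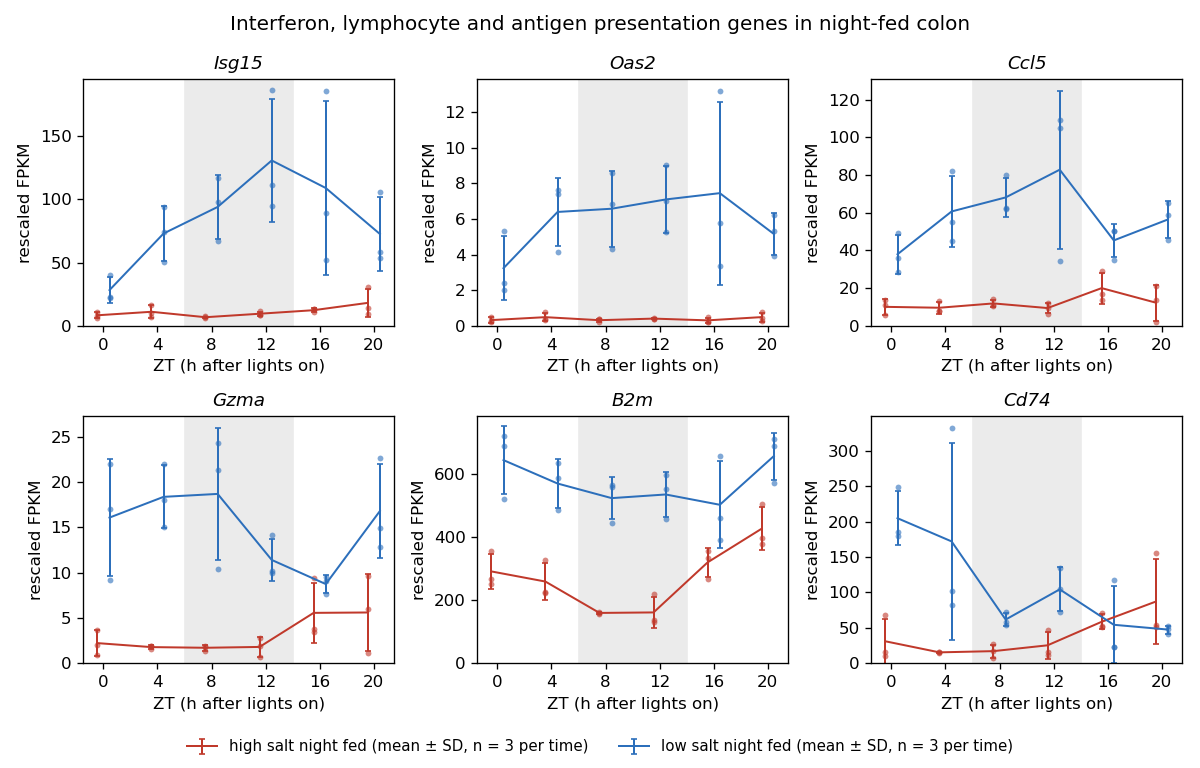
Rescaled FPKM of 6 immune genes against ZT in night-fed colon, high salt in red and low salt in blue, with points for libraries and lines and bars for the mean ± SD of 3 libraries per time. Grey bands mark ZT8 and ZT12. Isg15 and Oas2 lie lower in high salt at every time, B2m keeps a smaller gap, and the order of Cd74 turns at ZT16.

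The promoters of interferon-induced genes hold the interferon-stimulated response element, whose core is a pair of GAAA blocks with a spacer of any 2 bases. The letters GAAANNGAAA, searched on both strands in the 250 bases before each RefSeq start (GRCm38.p6), were present in 6 of the 11 interferon genes with a promoter sequence (54.5%). They were present in 271 of 8557 tested genes with one (3.17%) and in 978 of 32851 promoters (2.98%). The stretches that follow show where they lie in Isg15 and Ifit1, which are on the list, and in Oas3, which is not, read 5′ to 3′ on the gene's strand with matches in capitals, including matches of the opposite strand (TTTCNNTTTC). The matches lie 57 to 78 bases before the start in Isg15 (chr4:156200850-156200921, minus strand, 3 overlapping matches), 76 to 104 in Ifit1 (chr19:34640760-34640838, plus strand, 2 matches) and 66 to 75 in Oas3 (chr5:120777700-120777759, minus strand, 1 match). A match is a run of letters and not a measured binding site.
Isg15: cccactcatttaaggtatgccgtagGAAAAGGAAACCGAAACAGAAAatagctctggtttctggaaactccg
Ifit1: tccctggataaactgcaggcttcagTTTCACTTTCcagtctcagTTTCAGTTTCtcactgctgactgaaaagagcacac
Oas3: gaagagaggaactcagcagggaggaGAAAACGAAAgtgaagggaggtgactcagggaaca

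For comparison, the letters AGAACA, a hexamer of the element that corticosteroid receptors bind, searched in the same way, were in 2 of 11 sodium channel and aldosterone genes with a promoter (18.2%) and in 12.9% of tested genes. They were also in 2 of 11 interferon genes (18.2%), 2 of 7 lymphocyte genes, 1 of 8 class I genes and 16.1% of all promoters. The aldosterone list is thus not set apart by these letters.

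Lymphocyte genes fell beside the interferon genes. All 8 tested members of the list of T and intraepithelial lymphocytes fell, with a median of -1.18, at 4 and at 6 times, and Cd2, Cd4 and Itgae were too low to be tested. Ccl5, a chemokine of cytotoxic lymphocytes (chromosome 11, 83525778 to 83530518), lay at 2.24, 13.5 and 29.4 FPKM in high salt, against 28.6, 49.8 and 82.0 FPKM in low salt, and fell by 2.07 ± 0.24 (adjusted p = 7.15e-08). Gzma, the cytotoxic protease granzyme A (chromosome 13, 113093825 to 113100981), lay at 0.892 to 9.66 (median 2.76) FPKM in high salt and 7.62 to 22.6 (median 15.0) in low salt and fell by 2.06 ± 0.28 (adjusted p = 2.62e-06). High salt libraries under the whole low salt group numbered 11 of 12 for Ccl5 and 10 of 12 for Gzma. Cd8a, the coreceptor of cytotoxic T cells, fell by 1.18 ± 0.14 and Cd3g, of the T cell receptor complex, by 1.18 ± 0.17 (adjusted p = 1.78e-07 and 7.46e-06).

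The summed level of all 11 genes on the lymphocyte list was 7.21 to 54.9 FPKM (median 22.4) in high salt and 57.0 to 124 (median 83.5) in low salt, without overlap and with no member at 0 throughout. In bulk RNA, fewer cells of a type and less RNA per cell cannot be told apart. The part of lymphocyte number in the interferon difference was not tested. Macrophage genes summed to 23.9 to 35.8 FPKM in high salt and 20.9 to 48.6 in low salt, and of 4 tested 0 passed by limma (1 at unadjusted p under 0.05). Jchain, the only tested gene of B and plasma cells, did not pass (0.51 ± 0.19, adjusted p = 0.0796), and of 5 tested genes of neutrophils and inflammation 0 passed by limma (1 at unadjusted p under 0.05). With 8.68% of all tested rows called, 0 calls in lists this short do not set them apart from all rows.

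Antigen presentation by MHC class I was lower on high salt. Of 10 genes 9 fell and 0 rose by limma (9 at unadjusted p under 0.05), with a median of -0.62. B2m, the invariant chain of class I (chromosome 2, 122147686 to 122153083), lay at 224, 331 and 504 FPKM in high salt, against 391, 613 and 722 FPKM in low salt, with 10 of 12 high salt libraries under all low salt libraries, and fell by 0.89 ± 0.10 (adjusted p = 3.24e-08). H2-K1, a class I heavy chain (chromosome 17, 33996017 to 34000347), lay at 234 to 351 (median 312) FPKM in high salt and 351 to 591 (median 445) in low salt. The highest high salt library (350.7) lay just under the lowest low salt library (350.8), and H2-K1 fell by 0.57 ± 0.08 (adjusted p = 5.22e-06). Nlrc5, the transactivator of class I genes, fell by 1.01 ± 0.15, and Tap1, the peptide transporter, by 0.95 ± 0.15 (adjusted p = 1.06e-05 and 2.87e-05). None of these 4 calls ended under any alternative run.

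MHC class II genes, which present antigen to helper T cells, gave 2 calls at the 4 times, where 8.68% of all tested rows were called. Of 7 genes 2 fell and 0 rose by limma (6 at unadjusted p under 0.05), with a median of -0.76, and all 7 fell over 6 times. When libraries were left out the 4-time median ran from -1.14 to -0.29 and the falls from 0 to 4. They numbered 0 without replicate number 2 or 3, and 1 without number 1, without any 1 of the low salt replicates 3, or without high salt replicate 3 of ZT0 or ZT20. They numbered 3 without low salt ZT16 replicate 2 or high salt ZT20 replicate 1, and 4 without high salt ZT0 replicate 1. Cd74, the invariant chain (chromosome 18, 60803848 to 60812652), averaged 31.0 ± 32.0 FPKM in high salt and 205 ± 38.3 in low salt at ZT0, and 87.0 ± 59.9 and 47.6 ± 5.73 at ZT20 (SD, n = 3). Its difference was -3.17 at ZT0 and -3.15 at ZT4, but 0.54 at ZT16 and 0.67 at ZT20, and the 4-time average was -1.28 ± 0.34 (adjusted p = 0.0141). The call ended without replicate number 2 or 3, and that of H2-Eb1, a class II beta chain (-0.88 ± 0.26, adjusted p = 0.027), in 9, without any replicate number and without high salt ZT0 replicate 3, ZT20 replicate 3, or low salt ZT0 replicate 3, ZT4 replicate 3, ZT16 replicate 3, ZT20 replicate 3. The variation of Cd74 between the 4 times did not pass limma's F test (adjusted p = 0.0539), which passed for 3 of the 7 genes, H2-Ab1, H2-Eb1 and H2-DMa. These 3 calls were lost in 29, 25 and 22 alternatives, with the replicate block and without any replicate number among them.

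**Figure D3:**
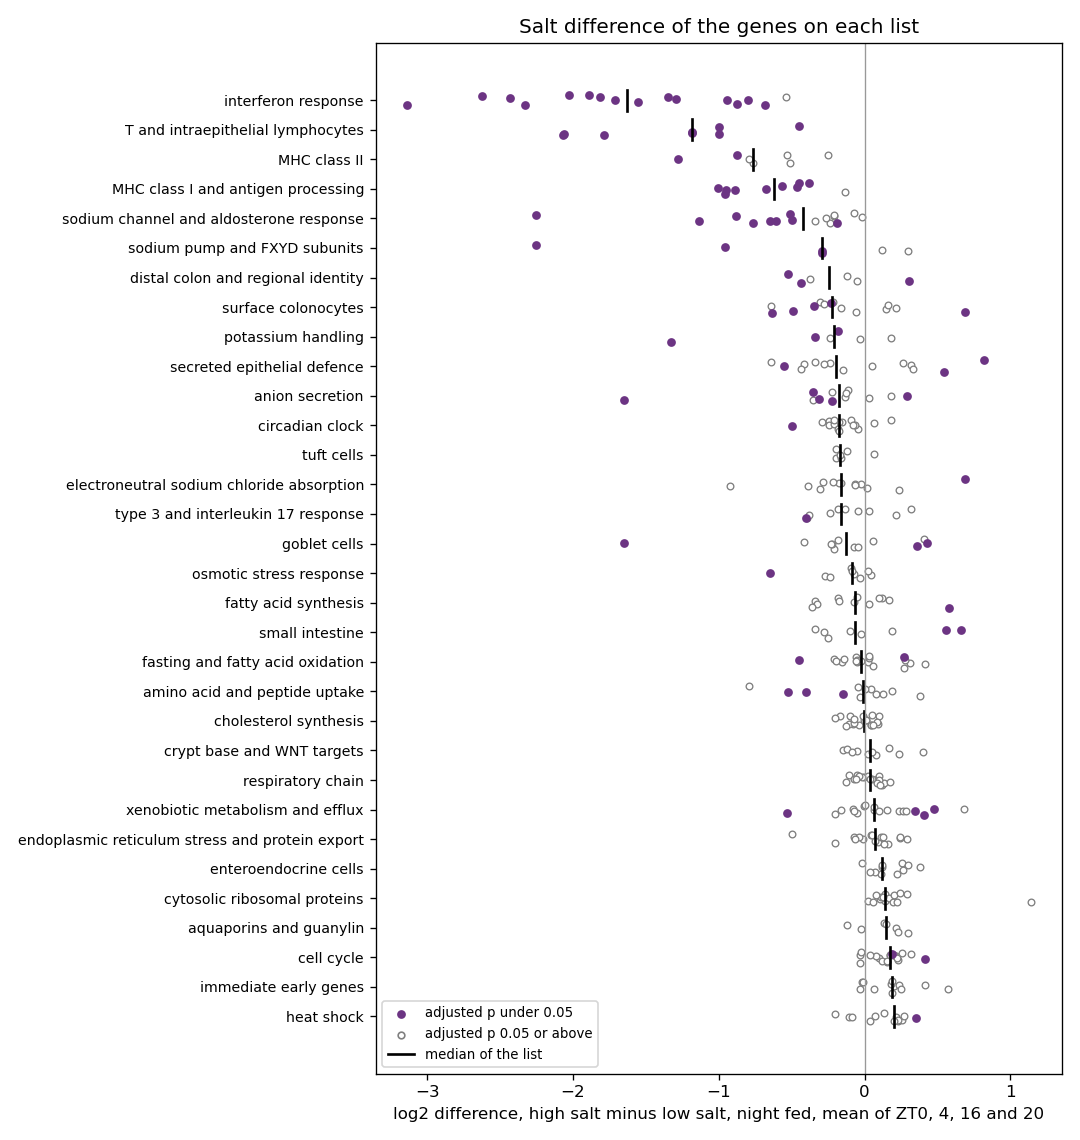
Log2 difference between high and low salt averaged over ZT0, ZT4, ZT16 and ZT20 (horizontal axis) for each tested gene of the lists with at least 6 tested members, sorted by list median (black bars). Filled points have an adjusted p under 0.05. The interferon list has a median of -1.63, the lymphocyte list -1.18 and the sodium channel and aldosterone list -0.42.

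Levels in all 7 conditions set high salt night fed beside wild type for the interferon genes. Isg15 had a median of 9.90 FPKM over 18 libraries in high salt night fed, against 81.7 in low salt night fed. Its median was 87.6 in high salt day fed and 51.2 in low salt day fed, 100.5 in MR knock out, 92.8 in Bmal1 knock out and 7.62 in wild type. Oas2 had medians of 0.373 in high salt night fed and 5.55 in low salt night fed, and 0.456 in wild type. High salt night fed and wild type were the low conditions for Isg15 and Oas2, and low salt night fed lay with the rest. The mean log2 level over the 16 interferon genes was 1.85 ± 0.27 in high salt night fed, 3.71 ± 0.49 in low salt night fed and 1.89 ± 0.30 in wild type (SD, n = 18 each). Each condition is a separate table, so a batch shared by its libraries cannot be told apart from the condition.

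**Figure D4:**
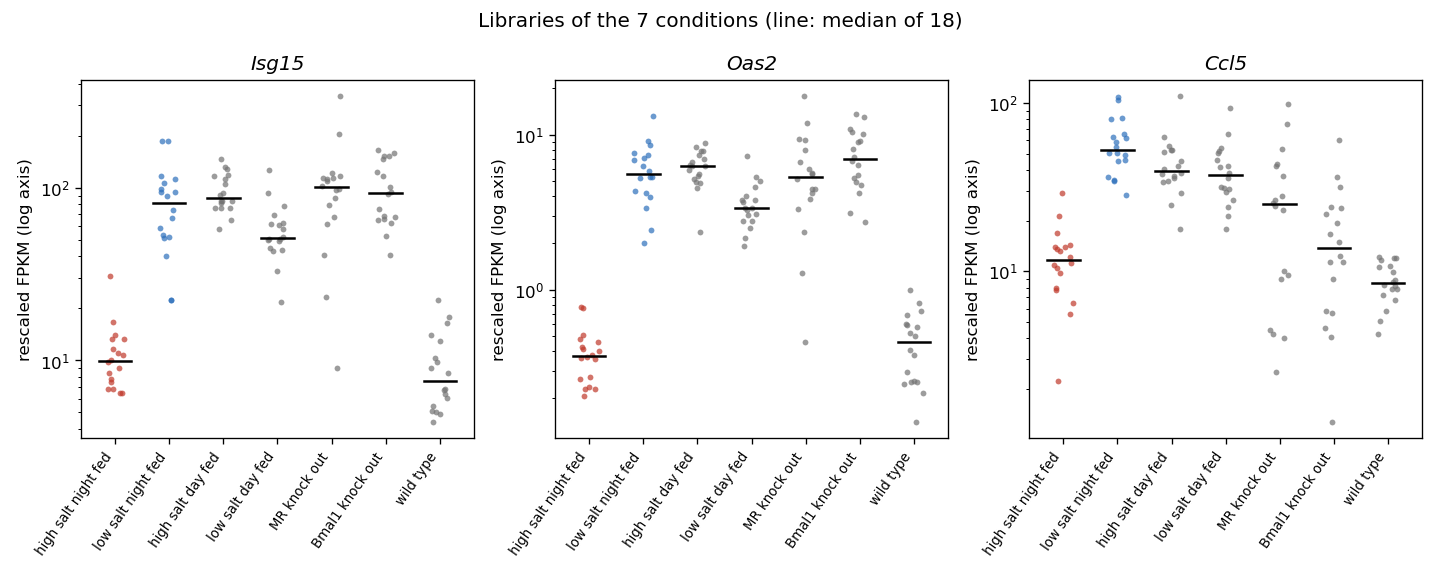
Rescaled FPKM on a log axis for each library of the 7 conditions, with the median of 18 as a black line, high salt night fed in red and low salt night fed in blue. For Isg15 and Oas2 high salt night fed has a median near that of wild type, and the other 5 conditions have higher medians.

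Genes that rose on high salt were fewer and changed less. Among rows with 1 sign at all 6 times that passed at 4 and 6 times, 139 named genes rose and 479 fell. The largest of these rises was of Akr1c18, which encodes a 20-alpha-hydroxysteroid dehydrogenase that inactivates progesterone (chromosome 13, 4132615 to 4150654). It lay at 2.77, 4.72 and 6.05 FPKM in high salt, against 0.900, 1.52 and 2.35 FPKM in low salt, with no overlap, and rose by 1.28 ± 0.13 (adjusted p = 6.72e-09). Cma1, a mast cell chymase (chromosome 14, 55941451 to 55944675), was at 1.17 to 4.83 (median 2.77) FPKM in high salt and 0.630 to 1.79 (median 1.12) in low salt, with 11 of 12 high salt libraries above every low salt library, and rose by 1.11 ± 0.16 (adjusted p = 6.03e-06).

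The other large rises were smaller than that of Akr1c18. Mgll, the lipase that cleaves monoglycerides, rose by 0.63 ± 0.14 (adjusted p = 0.00233), and Pla2g3, a secreted phospholipase, by 0.62 ± 0.09 (adjusted p = 9.19e-06). The malic enzyme Me1, which makes NADPH for lipid synthesis and is not among the 10 largest rises, rose by 0.58 ± 0.10 (adjusted p = 8.23e-05). None of the calls of Akr1c18, Cma1, Mgll, Pla2g3 and Me1 ended under any alternative run. Fabp2, at 263 to 619 (median 373) FPKM in high salt and 132 to 404 (median 244) in low salt, rose by 0.66 ± 0.13 (adjusted p = 0.00107), and Ckb, the brain-type creatine kinase, by 0.69 ± 0.13 (adjusted p = 0.000483), both calls ending without replicate number 3. Lyz1, a lysozyme of Paneth cells (0.82 ± 0.20), the ETS factor Etv4 (0.61 ± 0.14), the metallothionein Mt3 (0.77 ± 0.22) and the pancreatic lipase cofactor Clps (0.74 ± 0.23) complete the 10 largest. Their adjusted p was 0.00511 for Etv4, 0.00646 for Lyz1, 0.021 for Mt3 and 0.0376 for Clps. The call of Etv4 ended without replicate number 1 or 3 and that of Lyz1 without number 2 or 3. The call of Clps ended in 16 alternatives, the replicate block among them, without high salt ZT0 replicate 1, ZT4 replicates 2 or 3, ZT16 replicates 1 or 2, ZT20 replicate 3, or low salt ZT0 replicates 1 or 3, ZT4 replicate 1, ZT16 replicates 1 or 2, ZT20 replicate 3. That of Mt3 ended in 5, without low salt ZT0 replicate 3, ZT16 replicate 1, ZT20 replicate 3 and without replicate number 1 or 3.

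Xenobiotic genes gave calls in both directions. For this and the next lists, the share of all tested rows called was 8.68% at 4 times and 35% at 6 times. Of 19 tested members 3 rose at 4 times, the glutathione transferases Gstm3 (0.48 ± 0.07, adjusted p = 1.06e-05), Gstm1 (0.40 ± 0.08, adjusted p = 0.000923) and Gsta4 (0.35 ± 0.10, adjusted p = 0.0264), and 1 fell, the cytochrome Cyp3a13 (-0.53 ± 0.12, adjusted p = 0.00296). Over 6 times 2 rose and 6 fell, and the median of the list was -0.14, against 0.066 at 4 times. With FPKM as deposited none of the 3 rises at 4 times was called. That of Gstm1 also ended without replicate number 3, that of Gsta4 without number 2 or 3 and without high salt ZT0 replicates 2 or 3, ZT20 replicate 3, or low salt ZT0 replicate 3, and the fall of Cyp3a13 without number 1 or 3. Among 14 surface colonocyte genes 4 fell and 1, Car1, rose. Plac8, an abundant surface cell protein, fell by 0.49 ± 0.11 (adjusted p = 0.00424) and the adhesion protein Ceacam20 by 0.64 ± 0.17 (adjusted p = 0.0121). The call of Plac8 ended without replicate number 1 and that of Ceacam20 without number 1 or 3. Lypd8, of the secreted defence list, which keeps flagellated bacteria off the epithelium, was at 2876 to 5961 (median 4924) FPKM in high salt and 4803 to 9109 (median 6939) in low salt and fell by 0.56 ± 0.11 (adjusted p = 0.000683), a call that ended with quantile normalization. Beside Best2, 2 of 12 goblet cell genes rose, Agr2, a folding enzyme for mucins (0.43 ± 0.12, adjusted p = 0.0145), and the transcription factor Spdef (0.36 ± 0.11, adjusted p = 0.0312), and neither was called with FPKM as deposited. The call of Agr2 also ended with quantile normalization and without replicate number 3. That of Spdef also ended without any replicate number and without high salt ZT0 replicate 2, ZT4 replicate 3, ZT20 replicate 3, or low salt ZT0 replicates 1 or 3, ZT4 replicate 1, ZT16 replicate 3, ZT20 replicate 2.

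Many programmes of the colon gave 0 calls by limma at the 4 times, where 8.68% of all tested rows were called. That was so for 20 cholesterol synthesis genes (1 at unadjusted p under 0.05), 19 respiratory chain genes (1), 15 ribosomal protein genes (1), 17 genes of endoplasmic reticulum stress (5), 12 immediate early genes (2), 11 enteroendocrine genes (0), 10 crypt base genes (1) and 7 tuft cell genes (1). Against that share, 0 or 1 call in lists of this size does not set them apart from all rows. With low-yield times included, 35% of all rows were called. The same lists then gave 0 higher and 7 lower calls for cholesterol synthesis, 0 and 6 for the respiratory chain and 6 and 0 for ribosomal proteins. Cell cycle genes gave 2 rises among 21 (3 at unadjusted p under 0.05), osmotic stress genes 1 fall among 9, which was Sgk1, and fatty acid oxidation genes 1 rise and 1 fall among 19. Heat shock genes gave 1 rise among 13 (2 at unadjusted p under 0.05), fatty acid synthesis genes 1 rise among 12, which was Me1, amino acid uptake genes 3 falls among 12, interleukin 17 response genes 1 fall among 10 and secreted defence genes 2 rises and 1 fall among 14. Several of these calls were not stable. The call of Acaa2, the fatty acid oxidation gene that rose, ended in 24 alternatives, that of Ppargc1a, which fell, in 22 and that of Sprr1a, of the defence list, in 19. The calls of the uptake genes Slc2a1 and Slc6a20a ended in 16 each, and that of the heat shock gene Hspe1 in 14. All 6 ended without replicate number 1, without number 3, with scale factors over the night-fed libraries and in a fit of these alone. At least 1 of the 6 ended without any single library except low salt ZT0 replicate 2, ZT4 replicate 3 or ZT20 replicate 1, or high salt ZT0 replicate 1. The falls of Slc7a9, the third uptake gene, and of the interleukin receptor Il22ra1 ended without replicate number 3. Of the 2 cell cycle rises, that of Ccne1 ended without any replicate number and with FPKM as deposited. By the median of each list, these lay between -0.19 (secreted defence) and 0.20 (heat shock).

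Clock genes gave 1 call in the average over the 4 times, a share near that of all tested rows (8.68%). This average leaves out ZT8 and ZT12, so for rhythmic genes a change of level and a shift in time cannot be told apart. Of 16 clock genes 1, Per1, fell and 0 rose by limma (5 at unadjusted p under 0.05). Over 6 times, where 35% of all rows were called, 4 fell and 1 rose. The clock activator Arntl was at -0.29 ± 0.12 (adjusted p = 0.118), the repressor Nr1d1 at -0.21 ± 0.13 (adjusted p = 0.338), the repressor Per2 at -0.16 ± 0.12 (adjusted p = 0.456) and the output factor Dbp at -0.08 ± 0.16 (adjusted p = 0.805). Dbp averaged 13.3 ± 8.26 FPKM in high salt and 18.4 ± 10.2 in low salt at ZT8, against 1.31 ± 0.735 and 1.86 ± 0.757 at ZT20 (SD, n = 3).

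Whether the salt difference depends on the time of day was tested over the 4 times of closer yield, of which ZT16 was only loosely matched. By limma's F test 11 of 11380 rows passed (0.0967%), and 838 had an unadjusted p under 0.05. Among these 11 rows H2-Ab1, a class II beta chain, had the largest range, with differences of -2.47, -2.19, 0.70 and 0.78 at ZT0, ZT4, ZT16 and ZT20 (adjusted p = 0.0452). The immunoproteasome subunit Psmb8 had -1.91, -1.92, 0.05 and -0.04 (adjusted p = 0.0367), and Duoxa2, the maturation factor of an epithelial oxidase, -1.30, -1.34, 1.10 and 1.66 (adjusted p = 0.036). The count is not stable. It was 0 with a replicate block, 0 with FPKM as deposited and 0 in most fits without 1 library: high salt ZT0 replicate 2 or 3, ZT4 replicate 1 or 3, ZT16 replicate 1 or 2, ZT20 replicate 1 or 3, and low salt ZT0 replicate 1 or 3, ZT4 replicate 3, ZT16 replicate 1, ZT20 replicate 2 or 3. It was 1 without low salt ZT16 replicate 2 and 6 without high salt ZT4 replicate 2. With all 6 times 1060 rows passed (9.31%), a test that spans the change in yield.

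Day feeding on the same diets, which shares no library with night feeding, was compared over the 4 times. In day-fed mice 868 rows were higher on high salt (7.63%) and 863 lower (7.58%). Rows lower in both numbered 150, which is 20.9% of the falls of night-fed mice and 17.4% of those of day-fed mice, and rows higher in both numbered 64 (23.5% and 7.37%). Rows called in both with opposite signs numbered 130, of which 124 were lower on high salt at night and higher by day. The difference between the 2 salt differences, night minus day, passed for 185 rows in the positive direction (1.63%) and 460 in the negative (4.04%), together 5.67%, and for 490 and 731 without low salt ZT0 replicate 2. Over 6 times it passed for 998 (8.77%) and 1250 (11%), together 19.8%.

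For the 3 ENaC subunits the difference between feeding times did not pass. The salt differences of Scnn1a were -0.51 at night and -0.50 by day (night minus day -0.0099 ± 0.13, adjusted p = 0.974). Those of Scnn1b were -0.88 at night and -0.78 by day (night minus day -0.10 ± 0.17, adjusted p = 0.74), those of Scnn1g -1.14 and -1.30 (0.16 ± 0.25, adjusted p = 0.718), and those of Best2 -1.65 and -1.34 (-0.31 ± 0.21, adjusted p = 0.391). Fxyd4 fell further by day, with -2.25 at night and -4.16 by day (night minus day 1.90 ± 0.39, adjusted p = 0.00112). Hsd11b2 fell further at night, with -0.77 and -0.39 (-0.37 ± 0.10, adjusted p = 0.0207). Tmprss4 was at -0.19 at night and 0.09 by day (-0.27 ± 0.07, adjusted p = 0.0175). Of the 16 members of the aldosterone list 1, Fxyd4, passed in the positive direction and 2, Hsd11b2 and Tmprss4, in the negative.

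Interferon and class I genes moved in opposite directions at night and by day. Of 16 interferon genes 15 fell at night and 14 rose by day, and the night minus day difference was negative and past the threshold for 15. Isg15 was at -2.33 at night and 0.89 by day (night minus day -3.21 ± 0.28, adjusted p = 1.60e-10), and Cd74 at -1.28 and 2.54 (-3.82 ± 0.48, adjusted p = 4.97e-07). Of 10 class I genes 9 fell at night and 9 rose by day, and 9 passed in the negative direction for night minus day. All 7 class II genes passed in that direction, where 2 fell at night and 7 rose by day. All 8 lymphocyte genes passed too, where 8 fell at night but only 1 rose by day (median 0.35). Clps was at 0.74 at night and -1.53 by day (night minus day 2.27 ± 0.33, adjusted p = 5.00e-06), and Akr1c18 was at 1.28 and 0.77 (0.52 ± 0.19, adjusted p = 0.0979).

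**Figure D5:**
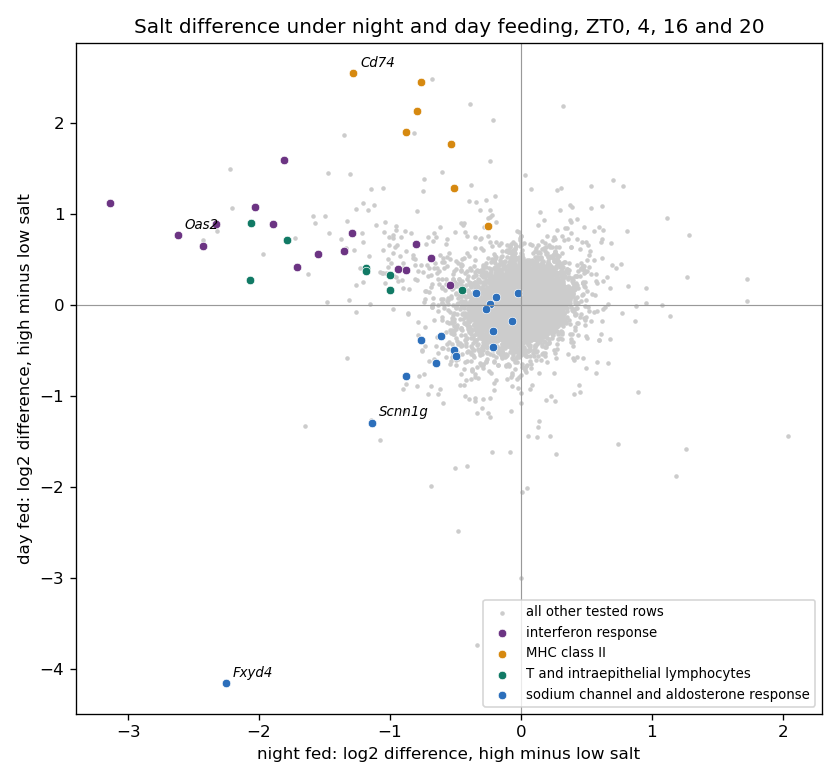
Log2 difference between high and low salt under night feeding (horizontal axis) against day feeding (vertical axis), averaged over ZT0, ZT4, ZT16 and ZT20, 1 point per tested row. Interferon and class II genes lie lower at night and higher by day, and of the sodium channel and aldosterone genes called at night all but Tmprss4 (-0.19 at night and 0.09 by day) lie lower in both, with Fxyd4 at -2.25 at night and -4.16 by day.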

How the data were processed

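RNA from mouse colon was extracted with TRIzol, per the labels' protocols, and made into Illumina TruSeq stranded mRNA libraries. Reads were aligned with TopHat2 2.1.1 to mm10 and quantified with Cufflinks 2.2.1, per the submitters' processing notes. The authors deposited 1 table per condition, 24883 rows each, in FPKM, a unit read from the quantifier and the values. The sources used here do not give annotation, Cufflinks options or sequencing depth, so no counting interval was computed.

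A median-of-ratios factor per library was computed over 6966 rows with FPKM of at least 1 in all 126 libraries, and values were analysed as log2(rescaled FPKM + 0.5), which understates folds of low genes. The 11380 rows whose mean reached 1 in any of the 7 conditions were tested. limma 3.58.1 in R 4.3.3 (trend, robust) was fitted with 1 mean per group and time to the 72 libraries of the 4 diet groups (48 residual degrees of freedom), and for the 4-time results to 48 of them (32). Tests were 2-sided, adjusted by Benjamini-Hochberg over all rows, with 0.05 as the threshold, and ± gives the SE unless SD is named. Members and gene lists were chosen with earlier results of these data known. Named genes are the 10 largest rises and falls that pass at 4 and 6 times with 1 sign at all 6 times, the 10 largest time and night minus day differences, sodium and clock genes, and up to 4 per other list by adjusted p. Epithelial markers are named as a check, and Cxcl10 was named after its value was seen. Predicted genes and receptor segments were left out, and some members of the lists are not reported here. Of tested rows, 113 share a symbol with another row. Coordinates are from GENCODE vM21 on mm10 and promoters from RefSeq on GRCm38.p6, with those of chr18 left out.

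On simulated data of this layout, 82% of genes with a log2 difference of 0.5 and 96% with 1 were recovered at 4 times, and 0.0638% of 10980 unchanged genes were called. The simulated noise was independent between genes and libraries, without shifts shared by a whole library. These rates check the code and are not error rates of the real libraries. Alternatives were other pseudocounts, filters and scalings, array weights, other fits, a replicate block, a length score (how a library's values depend on transcript length) and leaving out libraries.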

Additional observations from a re-analysis of the deposited data

Results flagged for a closer look

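The salt difference was tested for a difference between night and day feeding over ZT0, ZT4, ZT16 and ZT20, and the 10 largest calls in each direction are given as night minus day differences on the log2 scale, from limma with adjusted p under 0.05. In the negative direction they were Ifi27l2a (-4.25), Cd74 (-3.82), Ifi44 (-3.72), Ifit2 (-3.40), Oas2 (-3.38), Oas3 (-3.27), Iigp1, an interferon-induced GTPase (-3.22), Isg15 (-3.21), H2-Aa, a class II alpha chain (-3.21), and Apol9a (-3.14). The night differences of these genes were negative and the day differences positive. That of H2-Aa at night, -0.76, did not pass (adjusted p = 0.164), and it ran from -1.38 to -0.012 when libraries were left out, -0.012 being the value without replicate number 3. The night call of Iigp1 ended without replicate number 1 or 2.

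In the positive direction they were Ang4, an angiogenin of gut defence (3.40), the pancreatic lipase relative Pnliprp2 (3.00), Clps (2.27), the pentraxin Mptx1 (2.07), the lectin Itln1 (2.06), Fxyd4 (1.90), the lectin Reg4 (1.90), fibronectin, Fn1 (1.57), Mptx2 (1.53) and the actin Acta1 (1.42). In 8 of these 10 the night salt difference alone did not pass over the 4 times, and the day difference was negative, with Ang4 at -0.34 at night (adjusted p = 0.695) and -3.74 by day (adjusted p = 7.34e-07). At ZT8 and ZT12, left out of these fits for low yields, Ang4 averaged 528 ± 185 and 371.5 ± 165.3 FPKM in high salt night fed. In low salt night fed it averaged 72.8 ± 80.7 and 74.15 ± 51.55 (SD, n = 3). Itln1 and Pnliprp2 also averaged higher in high salt at both times, but Mptx1 and Mptx2 averaged lower at ZT12. The night minus day call of Ang4 ended without replicate number 1, that of Acta1 without number 3 and that of Itln1 without either. The causes of these differences were not tested.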

How the results depend on the processing

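At 4 times the counts higher and lower were 26 and 1086 with FPKM as deposited, 1787 and 2809 with array weights and 977 and 1202 with the length score, and 433 were higher with quantile normalization. At 6 times they were 72 and 9918 with unscaled FPKM, which put the median row at -0.45, and 3154 and 4371 with array weights. With the length score they were 2066 and 1789 at 6 times, more higher than lower. Variation between times gave 0 rows with no filter, FPKM as deposited or the replicate block, 4 with scale factors over the night-fed libraries, 5 in a fit of these alone, 32 with the length score, 4050 with array weights and 1060 with all 6 times. Night minus day, positive and negative, gave 60 and 280 with FPKM as deposited, 1467 and 2594 with array weights and 998 and 1250 with 6 times, and 288 and 306 were positive with quantile normalization and the length score. Leaving out libraries or a replicate number gave 23 to 516 higher and 181 to 1081 lower at 4 times, 642 to 2149 and 1019 to 2727 at 6 times, 0 to 15 rows varying between times, and 24 to 991 positive and 169 to 1710 negative for night minus day.

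Among genes, the level difference of Dbp ran from -0.19 to 0.15 when libraries were left out (0.15 without replicate number 1, 0.022 without high salt ZT20 replicate 1) and that of Ang4 from -1.07 to 0.043 (0.011 and 0.043 without numbers 2 and 3), none passing. Same-numbered libraries did not deviate together (18 pairs, 4 with a correlation over 0.1, median -0.14), so the block with replicate numbers, which gave 273 higher and 674 lower at 4 times, is no paired test. The cause of the count shifts was not tested. For named genes' levels, fits without libraries left 2213 comparisons on the same side, with 229 calls lost, 11 gained and 4 signs reversed, and other alternatives left 1012, with 50 lost and 19 gained. Yield, group and time are confounded at ZT8 and ZT12 and less so at ZT16, and unknown depth limits statements on genes under 1 FPKM.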
